A study of Homo sapiens with 12 samples.

Results

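Long intergenic noncoding RNAs (lincRNAs) were described in suspension cultures of MSTO-211H, a human mesothelioma cell line. The submitters call these cells mesothelioma-initiating. The members were every gene with the biotype lincRNA, a gene length of at least 200 bases and a mean of at least 2 FPKM (fragments scaled to gene length and to library size) over the 12 libraries; 189 of 7558 lincRNAs of that length met it, among 58735 genes in the table. The members were thus selected on a measured value, their mean FPKM over all 12 libraries, and levels are given below as a description. Cells of the Combo group received 10 µM QTP, a compound known here by that abbreviation alone, and 4 Gy of radiation on the following day. The Rx group received QTP and a sham exposure, the IR group vehicle and 4 Gy, and the Con group vehicle and sham. The reading of Rx as QTP alone and of Combo as QTP with radiation rests on the 4 arms of the design and on the titles. RNA was taken 48 h after irradiation, with 3 libraries in each group, all from the same line. Whether replicates were separate cultures is not stated in the labels; p-values therefore reflect library-to-library spread alone, and that spread may be technical.

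LincRNAs are RNA polymerase II transcripts from DNA between protein-coding genes. Many are capped and spliced like messenger RNA but carry no long reading frame, and they are usually less abundant than messenger RNAs. Some build nuclear bodies or bind proteins, some are transcribed for the microRNA or small nucleolar RNA (snoRNA) cut from within them, and several are known targets or partners of p53, the transcription factor that answers DNA damage.

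Libraries held 13188257 to 18630958 recovered reads, of which 6.73% to 10.5% were mitochondrial. The lincRNAs described took 0.569% ± 0.068 of reads in Combo, 0.474% ± 0.034 in Rx, 0.506% ± 0.062 in IR and 0.494% ± 0.038 in Con (SD, n = 3 each). The 3 Combo libraries lay just above the 3 Rx libraries, from 0.511% against at most 0.509%, and the other pairs of groups overlapped. IR 3 and Combo 3 stood at opposite ends of the first principal component of all tested genes, which carried 26.5% of the variance, and likewise of the lincRNAs alone (32.3%). The mitochondrial share peaked in IR 3 (10.5%), where 23102 genes were above 0, fewer than elsewhere. It was the highest of the 12 libraries for 48 of the 189 lincRNAs, and Combo 3 for 22. The line was checked against 9 mesothelial markers, of which 5 averaged at least 1 FPKM. MSLN averaged 40.1 FPKM, CALB2 20.2, KRT8 476, KRT18 549 and BAP1 16.7. WT1 averaged 0.955 FPKM and KRT5 0.690, and UPK3B and KRT19 were under 0.1. Of 8 markers of other cell types, 7 were under 0.1 FPKM, with COL1A1 at 2.49. In bulk RNA, fewer cells of a kind and less RNA per cell cannot be told apart.

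Sequences carried by 2 classes of these RNAs are shown first, the Pumilio elements of NORAD and the microRNAs encoded within host lincRNAs. Hosts were found by position, which does not show that a host acts through its microRNA. NORAD, a single-exon RNA on the minus strand of chromosome 20 (36045622 to 36050960, hg38) that binds the Pumilio proteins and helps keep chromosome number stable, is shown at its closely paired Pumilio elements. A search of the longest transcript of each lincRNA for TGTANATA found 15 copies in NORAD, which is 2.81 per kb, and the next highest count was 6 in the much longer NEAT1. Of the 189 lincRNAs, 25 held a copy and 17 of those held 1. In the following stretches of the transcript, 5′ to 3′, capitals mark the elements, whose starts lie 9 bases apart in each pair.
NORAD bases 1428 to 1472, chr20:36049489-36049533, minus strand: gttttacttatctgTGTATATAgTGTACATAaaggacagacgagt
NORAD bases 2625 to 2669, chr20:36048292-36048336, minus strand: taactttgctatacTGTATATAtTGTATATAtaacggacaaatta
NORAD bases 3261 to 3305, chr20:36047656-36047700, minus strand: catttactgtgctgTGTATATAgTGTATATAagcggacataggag

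Of the 189 lincRNAs, 14 contained 24 microRNA genes within their span and on their strand, and 32 mature sequences from 12 of these hosts were taken from RefSeq (GRCh38.p14). A selection is shown: 3 groups that share a seed, and 1 sequence each for MIR137HG, MIR210HG, MIR34AHG and the copies CYTOR and MIR4435-2HG. The seed is bases 2 to 8, given in capitals, and sets which messenger RNAs a microRNA pairs with. The mature microRNAs themselves were not measured here. MIR222HG holds both members of a pair with 1 seed, and the let-7 seed comes from 2 hosts, AC048341.1 and MIRLET7BHG.
hsa-miR-221-3p, from MIR222HG: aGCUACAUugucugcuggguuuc
hsa-miR-222-3p, from MIR222HG: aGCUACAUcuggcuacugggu
hsa-let-7i-5p, from AC048341.1: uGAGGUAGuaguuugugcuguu
hsa-let-7a-5p, from MIRLET7BHG: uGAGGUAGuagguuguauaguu
hsa-let-7b-5p, from MIRLET7BHG: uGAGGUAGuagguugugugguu
hsa-miR-30c-5p, from LINC00472: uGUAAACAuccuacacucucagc
hsa-miR-30a-5p, from LINC00472: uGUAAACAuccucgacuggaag
hsa-miR-137-3p, from MIR137HG: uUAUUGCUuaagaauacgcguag
hsa-miR-210-3p, from MIR210HG: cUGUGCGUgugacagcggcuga
hsa-miR-34a-5p, from MIR34AHG: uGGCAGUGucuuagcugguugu
hsa-miR-4435, from CYTOR and from MIR4435-2HG: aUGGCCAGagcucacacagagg
The last sequence is the same from both hosts, which are near-identical copies on chromosome 2, so reads can be shared between them, which leaves both levels uncertain.

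Most of the lincRNAs were low, and a few were as abundant as well-expressed messenger RNAs. Their median level was 3.90 FPKM (quartiles 2.87 and 6.51), against 8.43 FPKM for the 9424 protein-coding genes above the same level. In all, 128 lay under 5 FPKM, 27 reached 10 FPKM and 4 reached 50 FPKM. The 4 highest held 24.0% of the summed FPKM of the set and the 10 highest held 37.5%. Just inside the level that defined the set were AC012531.1 (2.001 FPKM), SNHG18 (2.02 FPKM) and AC008014.1 (2.03 FPKM), and just outside it AC017002.1 (1.9997 FPKM), AC097059.2 (1.99 FPKM) and LINC01615 (1.95 FPKM). The lincRNAs were short, with a median length of 1604 bases (254 to 23224), so the median lincRNA rested on 109 reads a library. Low counts were common enough to limit precision, since 29 lincRNAs averaged under 30 reads, 11 fell under 10 reads in some library and 1, AC024560.3, had 0 in a library.

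**Figure D1:**
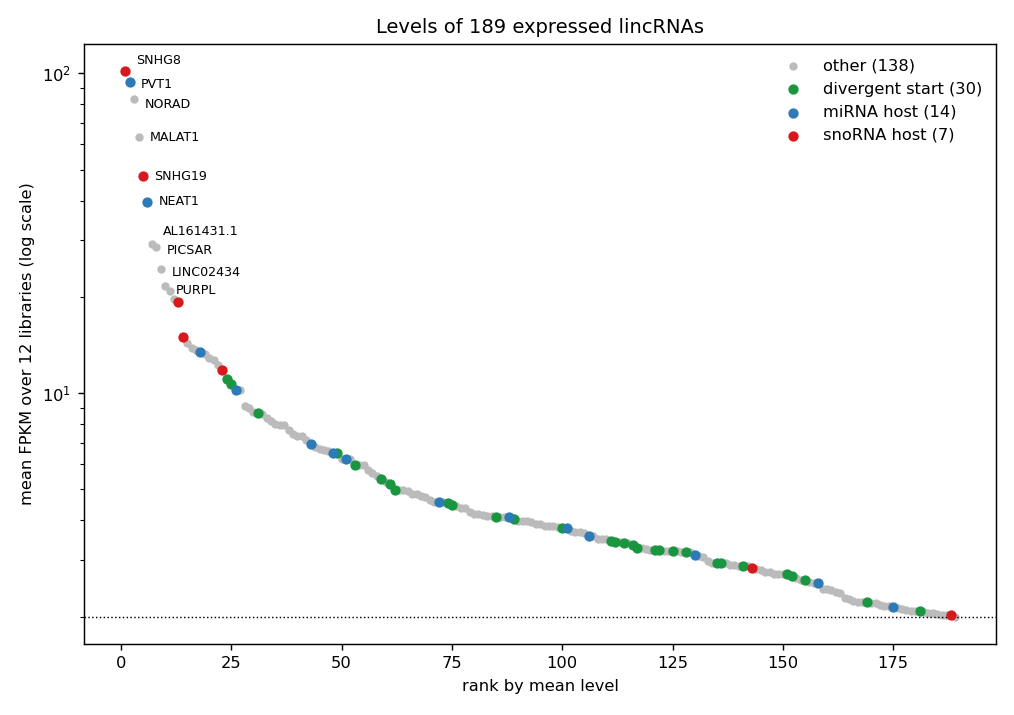
Mean FPKM over 12 libraries (log scale) of each of the 189 lincRNAs, ranked from highest to lowest; colours mark hosts of snoRNA genes, hosts of microRNA genes and lincRNAs that start divergently from a protein-coding gene, with hosts coloured as hosts where both apply. The dotted line is the level of 2 FPKM that defined the set, and SNHG8, PVT1, NORAD and MALAT1 stand above 50 FPKM.

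The most abundant was SNHG8 (mean 101 FPKM; chromosome 4, 118278709 to 118279823, plus strand), a host of the snoRNA SNORA24. It was followed by PVT1 (93.7 FPKM), which lies next to MYC and is known as a partner of MYC in cancer, then NORAD (82.8 FPKM) and MALAT1 (63.2 FPKM), an abundant RNA of nuclear speckles. SNHG19, another snoRNA host, averaged 47.8 FPKM, and NEAT1, the scaffold of paraspeckles, 39.6 FPKM. The other members of the top 10 were AL161431.1 (29.2 FPKM; now LINC03061), PICSAR (28.6 FPKM), LINC02434 (24.4 FPKM) and PURPL (21.5 FPKM), a p53-induced RNA known to restrain p53. Among the rest of the set, LINC00839 had the narrowest range between libraries, 1.16-fold from lowest to highest, and the median range was 1.86-fold.

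By position, 38 lincRNAs overlapped the span of a protein-coding gene, 29 of them on its other strand, and the median distance to the nearest protein-coding gene was 3925 bases. Another 36 lay over 50 kb from any protein-coding gene. In 32 the start lay within 1 kb of the start of a protein-coding gene on the other strand, which is called a divergent start. Exons overlapped those of a protein-coding gene on the same strand in 6 lincRNAs and on the other strand in 14. Reads of overlaps on the same strand cannot be told apart by strand. For overlaps on opposite strands the use of strand in counting is not given in the sources used here, so certainty is lacking there too. For SNHG4 the shared stretch with MATR3 was 626 bases and for MIR137HG with DPYD 494 bases. Names were mostly provisional: 100 of the 189 carried a name made from a genomic clone.

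In none of 8 comparisons did a lincRNA pass an adjusted p of 0.05 (limma, Benjamini-Hochberg over 13038 tested genes). Across all tested genes, 0% passed in 7 comparisons and 12 genes (0.0920%) passed for QTP averaged over both radiation arms; limma voom on the recovered reads also called 0 lincRNAs. The lowest adjusted p of a lincRNA was 0.0774, for ELFN1-AS1 with QTP averaged. The counts at an unadjusted p under 0.05 follow, each beside the share of all genes. For Combo against Con there were 22 (11.6%, against 13.2% of all genes), for Combo against IR 28 (14.8%, against 17.5%), for Combo against Rx 12 (6.35%, against 9.11%), for Rx against Con 10 (5.29%, against 3.26%) and for IR against Con 13 (6.88%, against 6.86%). For QTP averaged there were 17 (8.99%, against 11.4%), for radiation averaged 15 (7.94%, against 8.51%), and for the interaction, the difference between the radiation effect with and without QTP, 14 (7.41%, against 7.63%). The 3 comparisons against Con share the 3 Con libraries.

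Groups that did not overlap were found for 30 lincRNAs in Combo against Con (15.9%, against 22.8% of all genes), 26 in Combo against IR (13.8%, against 20.1%) and 31 in Combo against Rx (16.4%, against 21.0%). The count was 20 in Rx against Con (10.6%, against 7.78%) and 14 in IR against Con (7.41%, against 10.5%). With all 6 QTP libraries set against the other 6, 2 lincRNAs did not overlap (1.06%, against 0.851% of all genes), ELFN1-AS1 and AC019069.1. That share was near the share of all genes. With all 6 irradiated libraries set against the other 6, 0 lincRNAs did not overlap, against 0.460% of all genes.

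Median changes of the lincRNAs were small. On the log2(FPKM + 1) scale, which understates changes of low genes, the median was 0.05 in Combo against Con, where the median of all tested genes was -0.01, and 0.04 in IR against Con, where it was 0.01 for all genes. In Rx against Con the median of the lincRNAs was 0.0001. Rescaling to TPM turned the lincRNA median to -0.06 in IR against Con and to -0.08 in Rx against Con, and with limma voom these were -0.01 and -0.04; the median of all genes moved along with them, to -0.09 and -0.08 with TPM. The 189 divided into 110 higher and 79 lower in Combo against Con and into 108 higher and 81 lower with QTP averaged. A 95% interval reached 0.34 on either side of the estimate for the median lincRNA between 2 groups, 0.24 for the averaged comparisons and 0.48 for the interaction. Residual SDs were wider than those of messenger RNAs above the same floor, with a median of 0.208 against 0.117 for protein-coding genes of 2 FPKM or more. The 2 sets were not matched in reads. Protein-coding genes had a median of 8.43 FPKM and 5113.5 bases, the lincRNAs of 3.90 FPKM and 1604 bases. The part of read number in the wider SDs was not tested.

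**Figure D2:**
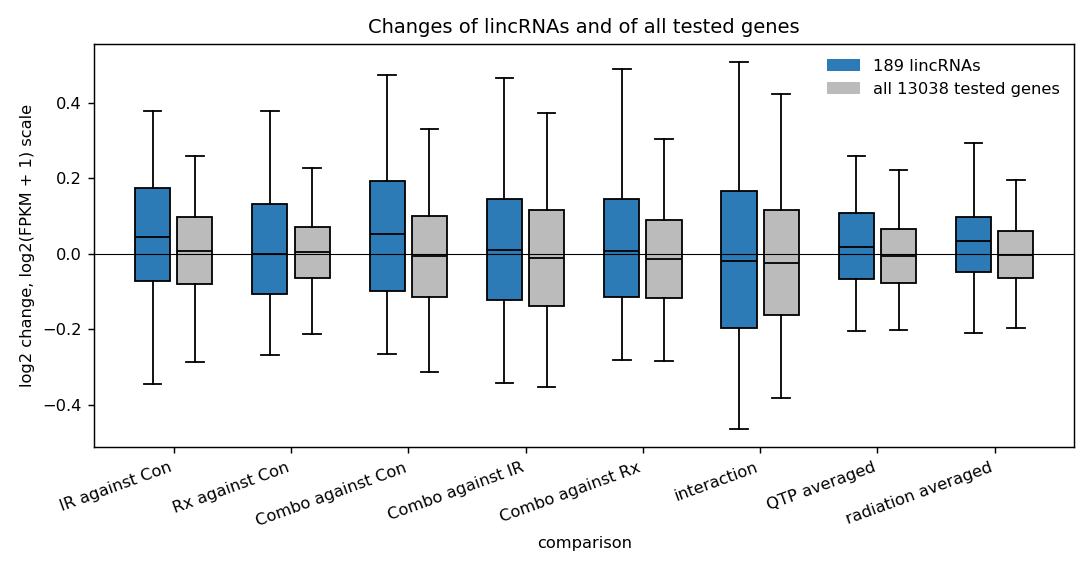
Log2 changes, on the log2(FPKM + 1) scale, of the 189 lincRNAs (blue) and of all 13038 tested genes (grey) in 8 comparisons; boxes span the quartiles, lines mark medians and whiskers the 5th and 95th percentiles. Medians of both sets lie near 0 in every comparison, and the boxes of the lincRNAs are the wider ones.

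Among the lincRNAs with the smallest p, ELFN1-AS1 and AC019069.1 were lower in every QTP library than in every library without it. ELFN1-AS1 (chromosome 7, 1738630 to 1742291, minus strand) lies within ELFN1 on its other strand and is known as an RNA raised in several cancers. It stood at 4.54, 5.52 and 4.23 FPKM in Combo, 5.18, 4.55 and 4.67 FPKM in Rx, 6.71, 7.61 and 6.66 FPKM in IR and 5.68, 6.41 and 5.64 FPKM in Con. The highest QTP library, at 5.52 FPKM, lay just under the lowest of the others, at 5.64 FPKM. Its change was -0.36 (SE 0.07) with QTP averaged, lower in 6 of 6 QTP libraries, with an adjusted p of 0.0774 by limma. ELFN1 itself averaged 0.337 FPKM and was too low to test.

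AC019069.1, now named HK2-DT, starts divergently from HK2, which encodes the glycolytic enzyme hexokinase 2, and shares 7 exonic bases with it on the other strand (chromosome 2, 74832655 to 74833987, minus strand). Its levels were 3.16, 3.90 and 3.49 FPKM in Combo, 3.28, 3.54 and 3.57 FPKM in Rx, 4.15, 5.55 and 5.48 FPKM in IR and 4.26, 4.22 and 4.58 FPKM in Con. The 6 QTP libraries lay below the 6 others. The change with QTP averaged was -0.34 (SE 0.07; limma adjusted p = 0.121), which passed at 0.0415 without IR 1. HK2 changed by 0.15 (SE 0.14), an estimate of the other sign, with means of 35.0 FPKM in Combo, 31.0 in Rx, 31.2 in IR and 29.4 in Con.

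The promoters of this pair of lincRNAs, and that of CYTOR described next, are shown as RefSeq gives them (GRCh38.p14, 250 bases before to 50 after the start, read in the direction of transcription). Capitals mark the motifs searched on both strands: TGAGTCA, an AP-1 site, CACGTG, an E-box, ACGTG, and TCACNCCAC, a sterol element. ACGTG is 1 form of the core that hypoxia-inducible factors bind, and an E-box also contains it. Other forms of that core, such as GCGTG, were not searched. ELFN1-AS1 has none of the searched motifs in its window.
ELFN1-AS1, chr7:1742261-1742560, minus strand: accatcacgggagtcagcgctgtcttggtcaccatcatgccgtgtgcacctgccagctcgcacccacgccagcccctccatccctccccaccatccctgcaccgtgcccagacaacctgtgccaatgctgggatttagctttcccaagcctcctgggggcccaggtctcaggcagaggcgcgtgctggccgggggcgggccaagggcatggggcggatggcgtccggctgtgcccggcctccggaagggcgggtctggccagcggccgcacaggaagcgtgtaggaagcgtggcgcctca
AC019069.1, chr2:74833938-74834237, minus strand: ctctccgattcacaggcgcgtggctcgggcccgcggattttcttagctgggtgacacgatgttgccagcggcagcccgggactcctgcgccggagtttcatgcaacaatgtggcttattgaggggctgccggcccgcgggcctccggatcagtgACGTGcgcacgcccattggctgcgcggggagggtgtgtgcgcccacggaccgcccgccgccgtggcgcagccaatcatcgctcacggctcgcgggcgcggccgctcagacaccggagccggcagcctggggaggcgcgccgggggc
CYTOR, chr2:87455177-87455476, plus strand: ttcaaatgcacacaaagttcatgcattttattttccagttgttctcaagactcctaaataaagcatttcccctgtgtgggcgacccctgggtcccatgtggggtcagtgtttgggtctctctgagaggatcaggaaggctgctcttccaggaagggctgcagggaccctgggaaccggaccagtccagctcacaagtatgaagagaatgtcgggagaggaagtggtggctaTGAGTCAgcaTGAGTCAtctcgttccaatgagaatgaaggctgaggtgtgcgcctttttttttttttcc
Of 35116 RefSeq promoters, 4.95% held TGAGTCA, 7.26% CACGTG, 21.4% ACGTG and 1.13% TCACNCCAC. Of the 75 lincRNAs with a promoter in that table, 5, 9, 32 and 2 held them in that order. A match describes letters, and binding was not measured here.

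CYTOR, a cytoplasmic RNA known to be raised in many cancers, was lower in Combo than in IR. It stood at 3.35, 3.76 and 3.03 FPKM in Combo and 3.35, 3.95 and 3.49 FPKM in Rx, against 4.06, 5.05 and 4.47 FPKM in IR and 3.62, 3.72 and 3.71 FPKM in Con. The Combo and IR libraries did not overlap, and the Con libraries lay within the range of Combo. The change in Combo against IR was -0.33 (SE 0.09; limma adjusted p = 0.167). In the same comparison ELFN1-AS1 changed by -0.48 (SE 0.09; adjusted p = 0.147) and AC019069.1 by -0.42 (SE 0.10; adjusted p = 0.165). Without IR 1, 7 of the 189 lincRNAs passed in Combo against IR, against 956 of the 13038 tested genes. The 7 were CYTOR, ELFN1-AS1, AC019069.1 and AC009414.2, all lower, and MEG3, AL606763.1 and AC012531.1, all higher.

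AL161431.1 (chromosome 13, 109269634 to 109278512, plus strand), 61627 bases from the nearest protein-coding gene, MYO16, had one of the 3 smallest p-values in Combo against Con, in Rx against Con and with QTP averaged. Its levels were 34.4, 31.9 and 42.4 FPKM in Combo, 31.1, 39.3 and 28.0 FPKM in Rx, 24.996, 22.4 and 30.5 FPKM in IR and 26.9, 20.9 and 17.7 FPKM in Con. Every Combo and Rx library was above every Con library, while the highest IR library reached above the lowest Rx library. Its change was 0.71 (SE 0.17; limma adjusted p = 0.149) in Combo against Con, 0.57 (SE 0.17; adjusted p = 0.9998) in Rx against Con and 0.52 (SE 0.12; adjusted p = 0.163) with QTP averaged. MYO16 averaged 0.0871 FPKM.

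**Figure D3:**
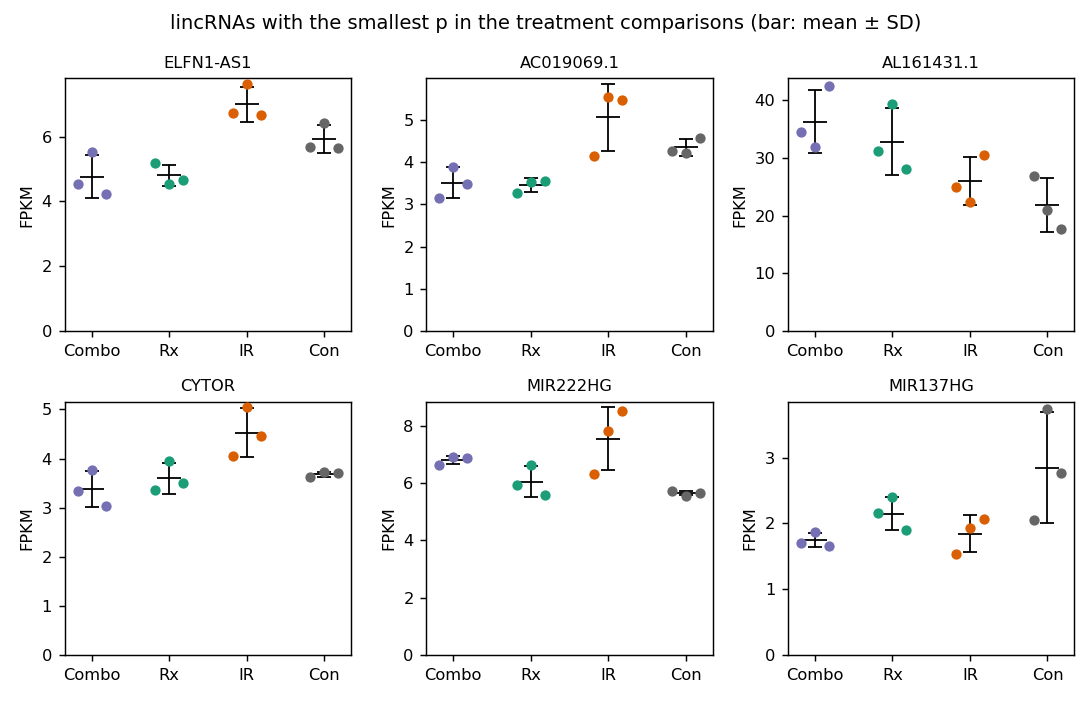
FPKM of 6 lincRNAs in each library, with the mean and SD of each group (n = 3), in Combo, Rx, IR and Con. ELFN1-AS1 and AC019069.1 lie lower in all Combo and Rx libraries than in all IR and Con libraries; none of the 6 passed an adjusted p of 0.05.

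Combo against Con also gave small p-values for LINC00513, known for a link to interferon signalling, and for LINC01164. LINC00513 stood at 1.51, 1.36 and 1.07 FPKM in Combo, against 3.18, 2.44 and 2.75 FPKM in Con, a change of -0.71 (SE 0.18; limma adjusted p = 0.149). LINC01164 stood at 3.90, 3.58 and 4.98 FPKM in Combo, against 1.98, 2.47 and 2.74 FPKM in Con, a change of 0.60 (SE 0.18; adjusted p = 0.199). Neither pair of groups overlapped. LINC01164 was likewise above Rx (2.96, 1.87 and 2.71 FPKM), with a change of 0.56 in Combo against Rx (SE 0.18; adjusted p = 0.545). Z82243.1, a lincRNA of 21.4 reads a library, and PURPL had the next smallest p in that comparison, with changes of 0.59 (SE 0.20) and 0.55 (SE 0.19). Z82243.1 stood at 4.33, 4.10 and 2.87 FPKM in Combo, against 2.05, 1.97 and 2.41 FPKM in Rx.

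In Rx against Con, AC093484.4 and AC018645.2 had the smallest p-values. AC093484.4 stood at 6.03, 4.15 and 6.83 FPKM in Rx, against 3.34, 3.15 and 3.72 FPKM in Con, with a change of 0.58 (SE 0.14) on 23.2 reads a library. AC018645.2 stood at 6.74, 8.02 and 6.95 FPKM in Rx, against 5.06, 4.69 and 4.31 FPKM in Con, with a change of 0.53 (SE 0.15). In both, Rx lay wholly above Con, and both had a limma adjusted p of 0.9998. In IR against Con the same AC093484.4 changed by 0.45 (SE 0.14) and AC060766.4 by 0.46 (SE 0.13), each with an adjusted p of 0.680. AC060766.4 stood at 6.70, 7.25 and 7.997 FPKM in IR, against 4.67, 5.68 and 4.77 FPKM in Con. Without IR 1, AL606763.1 passed in IR against Con: it stood at 5.24, 1.83 and 1.55 FPKM in IR, against 4.14, 4.79 and 4.73 FPKM in Con, so that IR 1 lay apart from the other 2 IR libraries.

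The smallest p-values for the interaction belonged to AC060766.4 (-0.71, SE 0.19), AC093484.4 (-0.74, SE 0.20) and Z82243.1 (0.96, SE 0.29), all with a limma adjusted p of 0.609. For AC060766.4, the mean was 5.67 FPKM in Combo and 6.93 FPKM in Rx, while it was 7.31 FPKM in IR and 5.04 FPKM in Con. For AC093484.4 the means were 4.41 FPKM in Combo and 5.67 FPKM in Rx, and 5.03 FPKM in IR and 3.40 FPKM in Con. Both were thus lower with radiation in the presence of QTP and higher with radiation in its absence, as differences that did not pass. Without IR 1, AL606763.1 passed in the interaction at an adjusted p of 0.0223.

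For radiation averaged over both QTP arms, MIR222HG, MIR137HG and LINC00973 had the smallest p-values. MIR222HG stood at 6.64, 6.90 and 6.87 FPKM in Combo and 6.33, 7.83 and 8.51 FPKM in IR, against 5.92, 6.64 and 5.60 FPKM in Rx and 5.71, 5.56 and 5.66 FPKM in Con. Every IR library was above every Con library, and the lowest IR library lay below the highest Rx library. Its change was 0.25 (SE 0.06; limma adjusted p = 0.379) with radiation averaged and 0.36 (SE 0.09; adjusted p = 0.680) in IR against Con. MIR137HG, the host of a neuronal microRNA, stood at 1.70, 1.87 and 1.66 FPKM in Combo and 1.53, 1.94 and 2.07 FPKM in IR, against 2.16, 2.40 and 1.89 FPKM in Rx and 2.05, 3.73 and 2.76 FPKM in Con. Its change was -0.31 (SE 0.10; adjusted p = 0.428), and DPYD, whose exons it shares, changed by -0.11 (SE 0.10). LINC00973 stood at 4.49, 5.13 and 6.63 FPKM in Combo and 5.17, 4.59 and 5.65 FPKM in IR, against 4.20, 4.56 and 4.25 FPKM in Rx and 4.84, 2.30 and 3.13 FPKM in Con, a change of 0.38 (SE 0.13; adjusted p = 0.428). Con 1 lay within the irradiated range for LINC00973, and the other 2 Con libraries below it.

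MALAT1 and NEAT1, RNAs of nuclear bodies, varied widely between libraries of the Combo group and of the IR group. MALAT1 stood at 69.2, 58.8 and 99.0 FPKM in Combo, 57.9, 50.1 and 49.3 FPKM in Rx, 84.1, 67.4 and 46.1 FPKM in IR and 58.4, 59.7 and 58.2 FPKM in Con. NEAT1 stood at 46.7, 36.0 and 64.1 FPKM in Combo, 36.7, 27.3 and 34.4 FPKM in Rx, 54.2, 37.2 and 27.5 FPKM in IR and 45.7, 33.2 and 32.8 FPKM in Con. Combo 3 was the highest library for both and IR 3 was low for both, at or near the lowest, and those are the libraries at the ends of the first principal component. NORAD, the RNA with the Pumilio elements shown above, kept a narrow range of 67.5 to 91.4 FPKM. Of the 7 genes listed for nuclear structure, 4 carried the biotype lincRNA and these 3 were members. Listed genes of another biotype could not be members, whatever their level. In Combo against Rx all 3 had positive estimates, with a median of 0.49. Every Combo library lay above every Rx library for MALAT1, and 21.0% of all genes did not overlap in that comparison. MALAT1 had the lowest unadjusted limma p of the 3 there, 0.0387, where 9.11% of all genes had one under 0.05. The lowest adjusted p of the 3 was 0.545. Radiation-averaged changes were 0.31 (SE 0.15) for MALAT1, 0.29 (SE 0.18) for NEAT1 and 0.12 (SE 0.07) for NORAD. None passed, with a lowest limma adjusted p of 0.617. Single libraries moved these values: NEAT1 was 0.17 without IR 1 and NORAD 0.08 without Rx 2, and MALAT1 was 0.20 without Combo 3.

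Of 13 genes listed for genome stability or links to p53, 9 carried the biotype lincRNA and 7 were members. None of the 7 was called in any comparison by limma. They were NORAD, NEAT1, PURPL, PVT1, TP53TG1, whose RNA was found as p53-induced, PINCR, an RNA that modulates p53 targets, and MIR34AHG, the host of the p53-induced miR-34a. With radiation averaged all 7 had a positive estimate, as did 115 of all 189 lincRNAs. The median was 0.12 against 0.03 over all 189, with 0 of the 7 below an unadjusted p of 0.05. Leaving out Con 1, IR 3, Combo 1 or Combo 2 turned TP53TG1 just below 0, and leaving out IR 3 did so for MIR34AHG. PURPL stood at 22.4, 29.7 and 26.0 FPKM in Combo and 24.4, 21.8 and 15.8 FPKM in IR, against 17.7, 13.5 and 22.1 FPKM in Rx and 22.5, 18.4 and 24.3 FPKM in Con. The Combo libraries all lay above Rx, and IR overlapped Con. PVT1 stood at 123, 84.2 and 116 FPKM in Combo, 126, 78.5 and 62.7 FPKM in Rx, 119, 86.3 and 74.2 FPKM in IR and 118, 81.2 and 55.1 FPKM in Con, and the library numbered 1 was the highest of its group in all 4 groups. MIR34AHG ranged from 4.07 to 5.05 FPKM over the 12 libraries.

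Hosts of snoRNA genes, whose introns carry RNAs that guide modification of ribosomal RNA, numbered 7 by position: SNHG8, SNHG19, EPB41L4A-AS1, SNHG4, SNHG15, LINC02001 (now SNHG30) and SNHG18. All 7 had estimates below 0 in Combo against Con, IR and Rx and with QTP averaged, and none passed by limma. These comparisons all share the 3 Combo libraries, so their signs are not separate observations. Of all 189 lincRNAs, 79 were below 0 in Combo against Con, 91 against IR, 91 against Rx and 81 with QTP averaged. In the other comparisons against Con the estimates ran the other way or were mixed: in Rx against Con 4 were above 0 and 3 below, with a median of 0.004, and in IR against Con 6 were above 0 and 1 below, with a median of 0.17. An unadjusted p under 0.05 was found for 3 of them in Combo against IR, where 17.5% of all genes had one, and for 1 with QTP averaged, where 11.4% of all genes had one. Rescaling to TPM left 6 of 7 below 0 in Combo against IR and against Rx. SNHG8 stood at 93.1, 80.3 and 77.9 FPKM in Combo, 108, 93.3 and 110 FPKM in Rx, 85.5, 102 and 164 FPKM in IR and 94.4, 93.7 and 114 FPKM in Con. The IR 3 value, at 164 FPKM, was far above the other 2 IR libraries. The median change of the 7 in Combo against IR was -0.25, and it was -0.17 without IR 3 and Combo 3, with 5 of 7 below 0. With QTP averaged the median was -0.12, against -0.03 without those 2 libraries, and the part of these libraries in the result was not tested further. SNHG19 stood at 45.4, 33.0 and 38.2 FPKM in Combo, against 46.7, 55.2 and 64.7 FPKM in IR, a change of -0.50 (SE 0.18; adjusted p = 0.207). Of the 37 genes in the list of snoRNA hosts, 10 carried the biotype lincRNA, while GAS5, SNHG1 and ZFAS1, among others, carried another. Members on that list were 6 of these 7 hosts and CYTOR, which holds no snoRNA gene in the table.

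**Figure D4:**
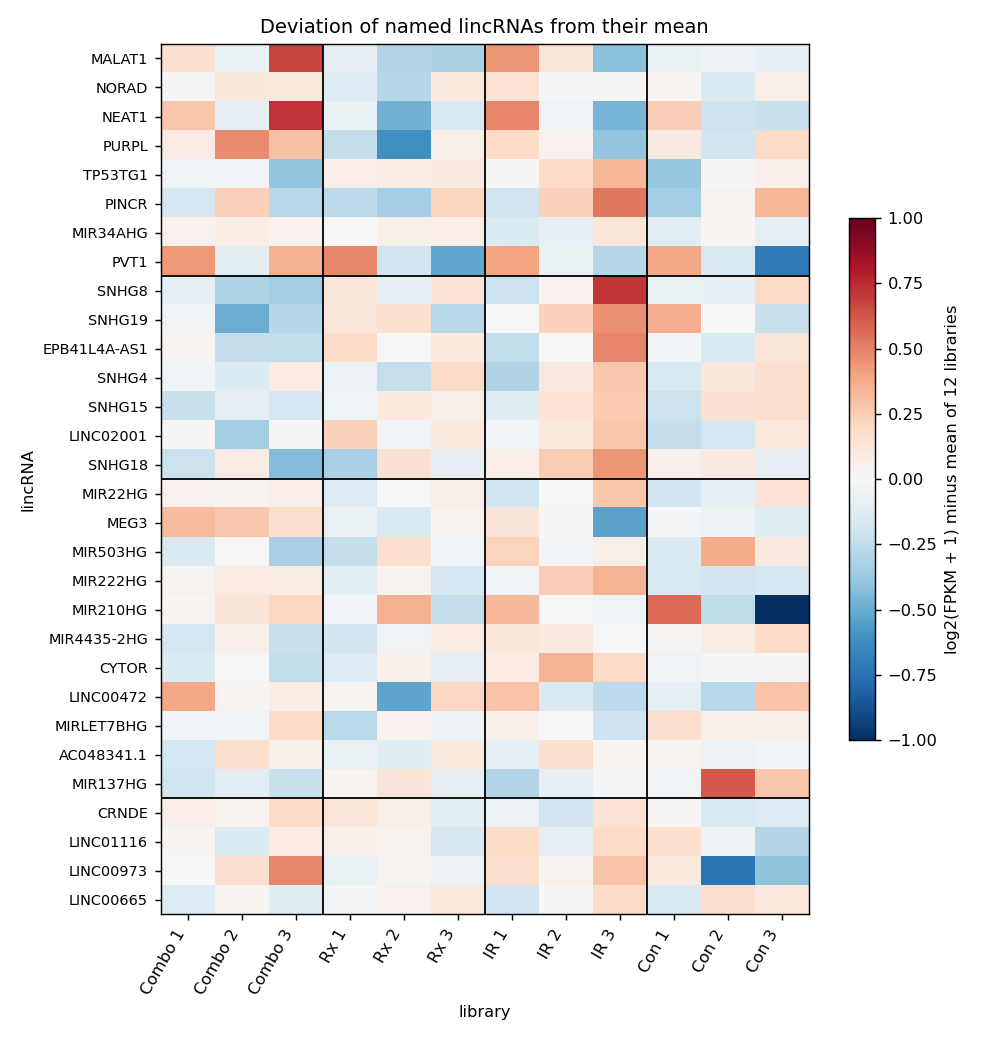
Deviation of 30 named lincRNAs from their own mean over 12 libraries, in log2(FPKM + 1) (colour, red higher and blue lower, limited to 1 either way); columns are libraries of Combo, Rx, IR and Con, and horizontal lines part nuclear and p53-linked RNAs, snoRNA hosts, microRNA hosts and others. IR 3 is red across the snoRNA hosts, and Combo 3 is red for MALAT1 and NEAT1.

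Hosts of microRNA genes numbered 14 by position, of which 6 were in the list of 17, where 11 carried the biotype lincRNA. With QTP averaged 7 were higher and 7 lower, with a median change of 0.003. With radiation averaged 10 were higher and 4 lower, with a median of 0.08, where 115 of all 189 lincRNAs were higher. None of the 14 passed by limma. MIR22HG, host of the tumour-suppressive miR-22, ranged from 11.5 to 16.4 FPKM and MIR503HG from 5.27 to 9.19 FPKM. MIR210HG, the host of the hypoxia-induced miR-210, stood at 6.10, 6.65 and 7.12 FPKM in Combo, 5.85, 7.97 and 4.93 FPKM in Rx, 7.78, 6.01 and 5.80 FPKM in IR and 9.35, 4.87 and 2.34 FPKM in Con. Its spread in Con, from 2.34 to 9.35 FPKM, exceeded that of any other group. HIF1A-AS2, chosen here after its values were seen, is an antisense RNA of the hypoxia factor gene HIF1A, with 13.1, 13.98 and 22.9 FPKM in Combo, 11.9, 7.10 and 7.16 FPKM in Rx, 24.4, 9.99 and 10.3 FPKM in IR and 25.3, 8.08 and 4.81 FPKM in Con. The spread within Con was larger than any difference between its group means.

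**Figure D5:**
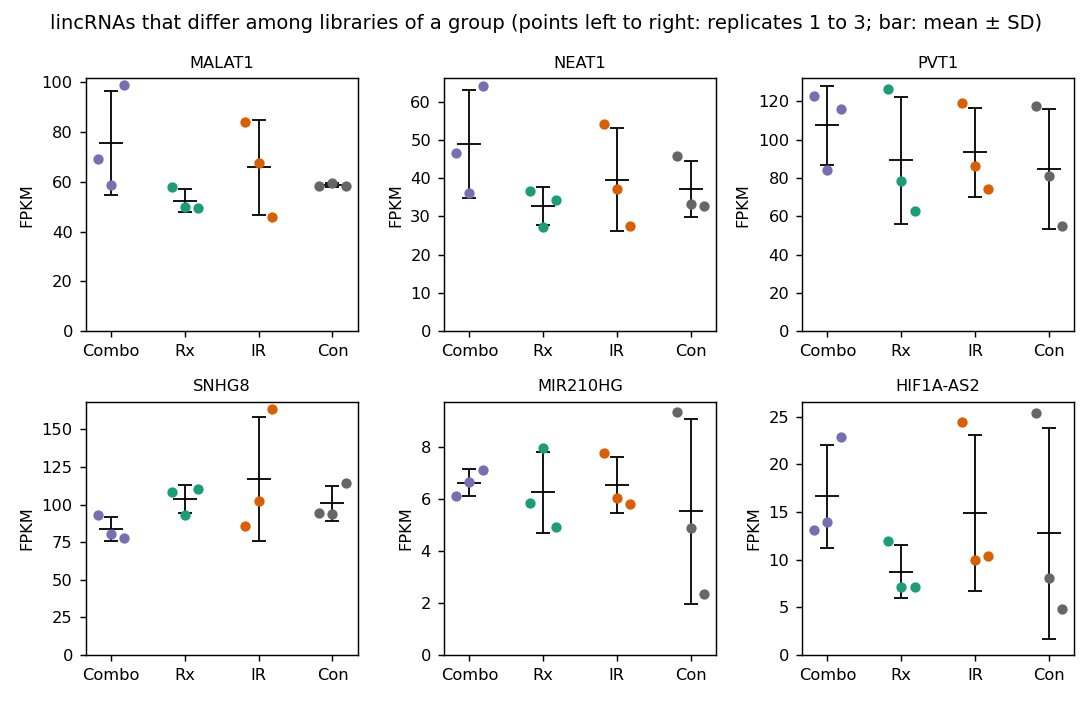
FPKM of 6 lincRNAs in each library, in Combo, Rx, IR and Con, with the mean and SD of each group (n = 3) and points ordered by replicate number from left to right. For MIR210HG and HIF1A-AS2 the Con libraries span 2.34 to 9.35 FPKM and 4.81 to 25.3 FPKM.

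Of 6 imprinted genes listed, 2 carried the biotype lincRNA, and H19, KCNQ1OT1 and SNHG14 carried another. The only member was MEG3, the maternally expressed RNA of an imprinted locus on chromosome 14. It stood at 12.9, 12.4 and 11.5 FPKM in Combo, 9.56, 9.09 and 10.4 FPKM in Rx, 11.2, 10.2 and 6.68 FPKM in IR and 10.0, 9.77 and 9.23 FPKM in Con. All Combo libraries lay above all others. The change was 0.32 (SE 0.14) in Combo against Con, 0.31 (SE 0.14) against Rx and 0.39 (SE 0.14) against IR, with limma adjusted p-values of 0.367, 0.545 and 0.210 in that order. Of 32 listed cancer-linked lncRNAs, 19 carried the biotype lincRNA and 5 were members: CYTOR, LINC00973, CRNDE, LINC01116 and LINC00665. CRNDE ranged from 2.72 to 3.80 FPKM, LINC01116 from 11.4 to 16.5 FPKM and LINC00665 from 2.68 to 3.79 FPKM over the 12 libraries.

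The 32 lincRNAs with a divergent start gave 31 pairs whose protein-coding partner was tested, and the partner was the more abundant in 22. The partners had 14 positive and 17 negative estimates in IR against Con, with a median of -0.02. Over all 189 lincRNAs 111 were positive there, with a median of 0.04. Of the 32 lincRNAs with a divergent start, 27 had positive estimates, with a median of 0.15. Without IR 3 the count was 22 of 32 and the median 0.06, and after rescaling to TPM it was 21 of 32 and 0.08. For the interaction, 28 of the 32 were negative, with a median of -0.21, and 25 were negative without IR 3. Over all 189 lincRNAs 102 were negative, with a median of -0.02, and the partners had a median of 0.06. Rescaling to TPM left 20 of the 32 negative in the interaction. None of the 32 passed by limma in any comparison.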

How the data were processed

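Total RNA (Trizol and RNeasy columns) of 12 samples was made into libraries with the NEBNext Ultra RNA kit and sequenced on a NovaSeq6000, per the labels' protocols. The authors deposited FPKM per gene in 1 table (hg38, as named in the submitters' processing notes). Not given in the sources used here are aligner, counter, strand setting, and whether poly(A) selection or depletion was used. Gene positions, biotypes and lengths were equal to GENCODE 29 for all 58735 genes. Multiplying deposited FPKM by gene length gave whole reads of 1 size per library for 100% of values (tolerance 0.01), and these reads were recovered. Every value column had a sample.

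Groups and replicate numbers came from titles. Genes averaging 1 FPKM or more (13038) were taken as log2(FPKM + 1), and limma 3.58.1 (R 4.3.3) was fitted over all 12 libraries, with its variance trend, with Benjamini-Hochberg adjustment at 0.05 and two-sided tests, in 8 comparisons. QTP averaged is the mean of Combo and Rx minus that of IR and Con, and radiation averaged the mean of Combo and IR minus that of Rx and Con. Alternatives were a pseudocount of 0.1, no low-value filter or one at 2 FPKM, TPM or median-of-ratios scaling, no variance trend, limma voom on recovered reads, only the groups compared, the replicate number as a block, and leaving out libraries. Voom with the block was added after seeing the data. The fit was tested on simulated data. Reads of replicates differed by more than sampling noise, so no library was counted as deposited again; this does not show separate cultures. Deviations of same-numbered libraries from their group means correlated over 0.1 in all 3 pairs between IR and Con (0.354, 0.182 and 0.161) and between Rx and Con (0.192, 0.191 and 0.282). Numbers were thus taken to pair those groups, where the replicate block gave 0 calls as without it. All SEs, intervals and p-values given come from fits without the block, so differences shared by a number count as spread in them. Equal counts of calls do not show that the block leaves those values unchanged. In the other pairs of groups at least 1 pair did not exceed 0.1.

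Named lincRNAs were any past the threshold (0), the 10 highest, the 3 smallest p in each comparison and the members of the role lists (38 in all). Those beside the level threshold were named as well. Others are named where a range, a low count, a sequence, a position or an alternative setting is described. HIF1A-AS2 was chosen after its values were seen. The members and lists were chosen with earlier results of these data known. Figures were drawn with Python 3.11.15 and matplotlib 3.10.9. Precision is limited by read number, and p-values reflect the spread between libraries.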

Additional observations from a re-analysis of the deposited data

Results flagged for a closer look

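TP53TG1, the p53-induced RNA that starts divergently from CROT, stood out because QTP went with lower levels under radiation and with higher levels without it. It stood at 10.6, 10.8 and 8.18 FPKM in Combo, against 11.1, 12.6 and 14.1 FPKM in IR, so every Combo library was below every IR library. Without radiation it stood at 11.5, 11.6 and 11.7 FPKM in Rx, against 8.24, 11.1 and 11.4 FPKM in Con, with every Rx library above every Con library. The difference between these 2 effects was -0.5068 on the log2(FPKM + 1) scale, with a limma p of 0.0181 and an adjusted p of 0.609 over all tested genes, so it did not pass. IR 3 was the highest library and Combo 3 the lowest, and they end the first principal component. Apart from Con 1, the Rx and Con libraries lay between 11.1 and 11.7 FPKM. Of all genes, 20.1% did not overlap in Combo against IR and 7.78% in Rx against Con. The share doing both in opposite directions was not computed.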

How the results depend on the processing

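Counts of calls past an adjusted p of 0.05 depended on the settings, for all genes and for the lincRNAs. LincRNA calls stayed at 0 under all settings other than those given here. With the replicate block and limma voom on recovered reads, 4 of 189 passed in Combo against Con, against 287 of 13038 over all genes. The 4 were AL161431.1, MYOSLID, LINC01164 and MIR137HG. Leaving out 1 library at a time gave 0 to 1 in IR against Con and 0 to 7 in Combo against IR. It gave 0 to 1 in the interaction and 0 to 1 with QTP averaged. Each of these lincRNA counts was highest without IR 1. Over all genes, dropping the filter on low values gave 1 call for Rx against Con, 4 for Combo against Rx, 5 each for IR against Con, Combo against Con and radiation averaged, and 6 each for Combo against IR, the interaction and QTP averaged. The replicate block gave 90 in Combo against Con and 3 with radiation averaged, and with limma voom it gave 287 for Combo against Con, 82 for QTP averaged, 78 for radiation averaged, 46 for Combo against IR and 2 for IR against Con. With QTP averaged, TPM scaling gave 0, no variance trend 0, limma voom without the block 33, and the fit without IR 3 and Combo 3 gave 0. Leaving out 1 library gave, over all genes, 0 to 3 in IR against Con, 0 to 956 in Combo against IR, 0 to 3 in the interaction, 0 to 18 with QTP averaged and 0 to 1 with radiation averaged. The cause was not tested.

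Of 697 values of 31 named changes, 685 kept direction and side of the threshold, 6 passed it under an alternative and 6 reversed. The reversals were TP53TG1 with radiation averaged (-0.0426 to 0.0838 over the libraries left out, with -0.0426, -0.0130, -0.0011 and -0.0059) and MIR34AHG (-0.0192 to 0.0447 over the libraries left out, lowest without IR 3, and -0.0164 without IR 3 and Combo 3). TPM scaling moved the median of all genes by up to 0.18, to 0.16 from -0.03 in the interaction. Replicates sharing a number correlated at -0.207 to 0.354, over 0.1 in 11 of 18 pairs, and 10 of 12 libraries correlated best with their own number, with every pair over 0.1 for IR with Con and for Rx with Con alone; in those 2 comparisons the block changed no call in the limma fit. Median-of-ratios factors were equal in all 12 libraries, at 1.0075, so that alternative could hardly differ from the main fit. The deposited scaling did not follow recovered reads alone. At 1 FPKM, 1 kb held 18.2 reads in Rx 2, of 18542055 in all, and 19.1 in Combo 3, of 18256090. Low reads limit the lincRNAs with under 30 reads.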
